A study of Mus musculus with 8 samples.

Results

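The genes described here are 10 dual-specificity phosphatase genes: Dusp1, Dusp3, Dusp4, Dusp5, Dusp6, Dusp7, Dusp8, Dusp10, Dusp14 and Dusp16. They were found by symbol among the 54446 genes of a count table from mouse RNA, and all 10 were measured. The table covers 8 RNA-seq libraries. In 4, called WT replicates 1 to 4, the RNA came from wild-type mice. The other 4, called HOM replicates 1 to 4, are of the genotype Scn2agt/gt, in which both copies of Scn2a carry a gene trap, a cassette placed in a gene so that its transcript is cut short. Scn2a encodes the sodium channel NaV1.2, through which many neurons of the brain fire action potentials, and the study asked how a severe shortage of this channel affects neurons in adult mice. The groups were littermates from heterozygous parents on the strain given as C75BL6, with no treatment named, and the trap is in the germline, so no promoter or Cre restricts it to a cell type. The labels give the cell type as neuron, with no brain region, age in weeks or sex, and do not say that each library is a separate mouse, so errors below measure the spread between libraries, which may be technical in part.

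Mitogen-activated protein (MAP) kinases are switched on when a kinase above them phosphorylates both a threonine and a tyrosine in their activation loop, and dual-specificity phosphatases switch them off by removing both phosphates. The 3 main MAP kinase branches are ERK, which growth factors and synaptic activity switch on, and p38 and JNK, which stress and cytokines switch on. Several of these phosphatases are themselves transcribed in response to the kinases they turn off, so that their mRNA is used as a readout of recent signalling, and in neurons Dusp1, Dusp4, Dusp5 and Dusp6 are known as genes that synaptic activity induces. The products of Dusp5, Dusp6 and Dusp7 act mainly on ERK, Dusp5 in the nucleus and the other two in the cytoplasm. Those of Dusp8, Dusp10 and Dusp16 act mainly on p38 and JNK. The nuclear enzymes of Dusp1 and Dusp4 act on more than 1 branch, and Dusp3 and Dusp14 encode small atypical members of the family that lack the kinase-binding domain of the others.

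The sequence upstream of the start site is shown for 4 of these genes, because 3 of them (Dusp1, Dusp5, Dusp6) were lower in HOM and the fourth (Dusp8) was not. Each line gives 250 bases that end just before the RefSeq start site, 5′ to 3′ on the gene's strand, from RefSeq on GRCm38.p6. Capitals mark matches, on either strand, to the cAMP response element TGACGTCA or its core TGACG, or to the CArG box, the site that serum response factor binds.
Dusp1, chr17:26508473-26508722, minus strand: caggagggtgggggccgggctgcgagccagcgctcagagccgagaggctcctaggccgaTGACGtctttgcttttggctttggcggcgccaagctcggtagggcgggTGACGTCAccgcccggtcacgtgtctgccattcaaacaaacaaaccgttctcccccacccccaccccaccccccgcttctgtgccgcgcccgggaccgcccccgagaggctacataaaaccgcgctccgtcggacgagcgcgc
Dusp5, chr19:53528895-53529144, plus strand: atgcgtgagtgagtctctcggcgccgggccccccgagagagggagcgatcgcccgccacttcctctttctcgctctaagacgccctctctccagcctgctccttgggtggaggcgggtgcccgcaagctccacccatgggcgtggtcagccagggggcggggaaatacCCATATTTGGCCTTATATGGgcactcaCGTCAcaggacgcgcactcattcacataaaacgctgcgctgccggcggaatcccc
Dusp6, chr10:99262981-99263230, plus strand: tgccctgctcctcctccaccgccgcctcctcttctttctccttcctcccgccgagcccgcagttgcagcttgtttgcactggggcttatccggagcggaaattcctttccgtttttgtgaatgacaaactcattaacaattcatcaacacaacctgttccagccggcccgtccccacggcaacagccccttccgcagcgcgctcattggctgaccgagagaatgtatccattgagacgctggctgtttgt
Dusp8, chr7:142095285-142095534, minus strand: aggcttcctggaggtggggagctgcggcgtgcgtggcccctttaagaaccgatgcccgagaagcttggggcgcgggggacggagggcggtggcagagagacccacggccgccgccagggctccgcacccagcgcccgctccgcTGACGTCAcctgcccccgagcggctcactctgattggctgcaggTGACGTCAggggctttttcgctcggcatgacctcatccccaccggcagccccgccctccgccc
The Dusp5 window held a pair of CArG boxes that abut each other, 82 to 73 and 72 to 63 bases before the start, and a CArG box occurred in 1.47% of all 32851 promoter windows of this length. The full element TGACGTCA, found in 1.55% of all windows, occurred 143 to 136 bases before the start of Dusp1 and at 2 places in Dusp8, 107 to 100 and 63 to 56 bases before the start. The core TGACG, which is part of the full element, occurred in 4 of the 9 genes of the set with a window, namely Dusp1, Dusp5, Dusp8 and Dusp16, against 17.8% of all windows. Dusp6 held none of the motifs searched. The other motifs were the AP-1 site TGANTCA (6.75% of all windows) and the Ets motif CCGGAAG (6.91%), which matched none of the 9, and the Egr motif GCGNGGGCG (4.70%), which matched Dusp16 alone. The element TGACGTCA was thus present upstream of a gene that was lower in HOM and of a gene that was not. These are matches of letters and not measured binding.

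Some properties of the libraries moved with genotype. Gene levels are in CPM, read counts scaled to a common library size with TMM factors. Scn2a, the trapped gene, went from 435 ± 51.6 to 128 ± 15.1 CPM (SD, n = 4; edgeR adjusted p = 1.16e-05), and total counts were 27993412 to 37538988 per library. Markers of choroid plexus, the tissue that makes cerebrospinal fluid, summed to 462 to 2957 CPM in WT and 170 to 477 CPM in HOM over the list of 16. Of the 15 tested, edgeR called 6 lower and none higher, and DESeq2 called 9 lower and none higher. At an unadjusted p under 0.05 all 15 were lower. The remaining gene, Kcnj13, was at 0. The summed level was highest in WT replicate 4, the library with the lowest WT value of Dusp1, Dusp5, Dusp6, Dusp7, Dusp8 and Dusp14. The 8 neuron markers summed to 10895 to 12150 CPM in WT and 9633 to 10314 CPM in HOM. By edgeR Snap25 and Gad1 were lower and 6 were not called. Of those, Rbfox3 alone had a higher mean in HOM, 424 ± 49.1 against 396 ± 47.4 CPM (SD, n = 4). A lower summed level of neuron markers thus moved with genotype beside the falls given below, but not every marker shared it. In bulk RNA, fewer cells of a type and less RNA per cell cannot be told apart. Glial transcripts were present beside neuronal ones: astrocyte markers summed to 4117 to 4432 CPM in WT and 3200 to 4043 in HOM, oligodendrocyte markers to 3410 to 5150 and 2942 to 3617, microglia markers to 176 to 204 and 200 to 219, endothelial markers to 125 to 172 and 96.9 to 131, and erythrocyte markers to 59.3 to 99.8 and 37.0 to 112. The astrocyte marker Gfap, the microglia marker P2ry12 and the erythrocyte marker Alas2 held 0 counts, so these sums rest on the other markers listed. The part of these shifts in marker levels in the phosphatase values was not tested, apart from a fit with the choroid plexus level given further on. Y-linked genes held 2 counts in HOM replicate 4 and 4452 to 5984 in each other library. By these counts HOM replicate 4 appears female and the others male, so sex was not balanced between genotypes. Results without HOM replicate 4 are given further on.

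In HOM, 7 of the 10 genes fell, 3 did not pass and none rose, where passing means an adjusted p under 0.05 in edgeR's quasi-likelihood test over all 17395 genes tested. In that test 5.40% of all genes passed, 2.94% lower and 2.47% higher. The members were chosen by family and with these CPM values of HOM against WT known, so their counts and differences are a description; nothing is read from the count, and no p-value is given for a member. At an unadjusted p under 0.05 no member was higher, and DESeq2 called none higher either. The median log2 fold change was -0.39 over the 10 genes and 0.00 over all genes tested. CPM did not overlap between genotypes at 7 of the 10, lower in HOM at each, against 7.47% of all genes that were lower and 6.63% that were higher without overlap.

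**Figure D1:**
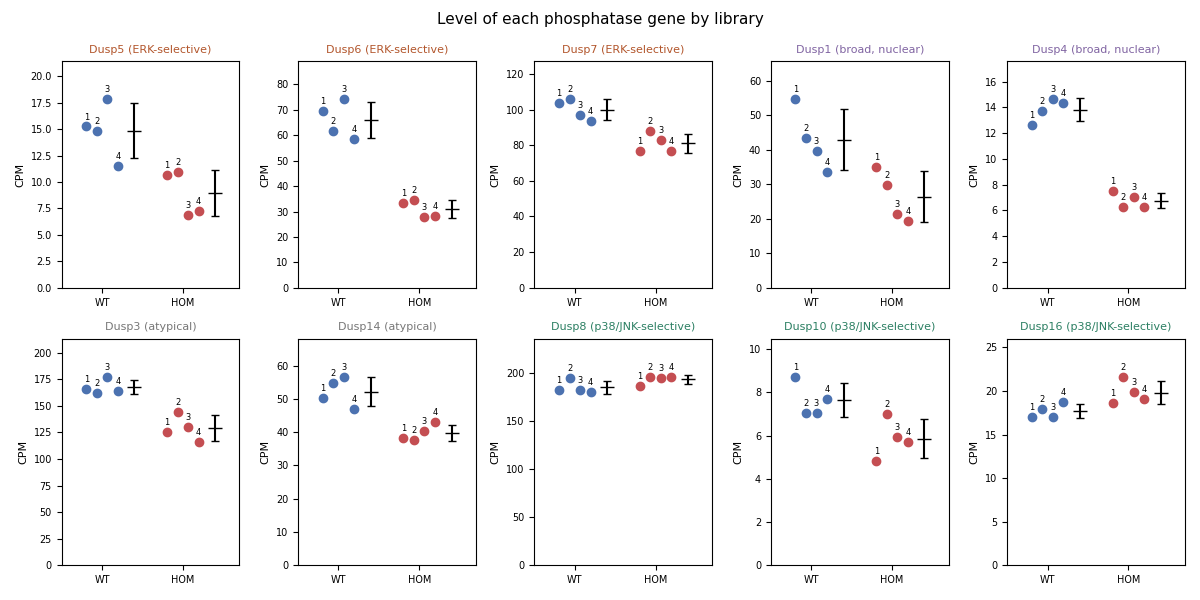
CPM of each of the 10 phosphatase genes (vertical axes, each from 0) in the 4 WT (blue) and 4 HOM (red) libraries, numbered by replicate, with the mean and SD of each genotype as a black bar. Dusp4 and Dusp6 show the widest gap between genotypes, whereas the Dusp8 and Dusp16 values overlap.

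Among the ERK-selective genes, Dusp6 fell to less than its lowest WT level in every HOM library. Its product is the cytoplasmic ERK phosphatase MKP-3. Dusp6 stood at 69.7, 61.6, 74.3 and 58.6 CPM across WT replicates 1 to 4 and 33.4, 34.7, 27.7 and 28.1 CPM across HOM replicates 1 to 4. The groups lay far apart, with no HOM value above 34.7 and no WT value below 58.6 CPM. The means were 66.0 ± 7.22 and 31.0 ± 3.61 CPM (SD, n = 4), so that HOM held 46.9% of the WT level, a log2 fold change of -1.09 (SE 0.10). On GRCm38, Dusp6 (ENSMUSG00000019960) occupies chromosome 10, 99263231 to 99267489, plus strand, clear of any other annotated gene.

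Dusp5, which encodes the nuclear ERK phosphatase, fell from 14.9 ± 2.58 to 8.93 ± 2.17 CPM (SD, n = 4; log2 change -0.74, SE 0.17). Its values were 15.3, 14.8, 17.8 and 11.5 CPM across WT replicates 1 to 4 and 10.6, 10.96, 6.88 and 7.23 CPM across HOM replicates 1 to 4. The genotypes did not overlap, but the lowest WT library, replicate 4, was close to the highest HOM library, replicate 2. The values rest on 222 to 564 counts per library. An antisense transcript shares 4.11% of the span of Dusp5 (chromosome 19, plus strand, 53529109 to 53542431), and the counts appear not to separate strands.

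Dusp7, the close relative of Dusp6, fell least of the 3, from 100.0 ± 5.88 to 81.0 ± 5.48 CPM (SD, n = 4; log2 change -0.30, SE 0.07). It stood at 103.9, 105.9, 96.8 and 93.4 CPM across WT replicates 1 to 4 and 76.5, 87.8, 83.0 and 76.6 CPM across HOM replicates 1 to 4. HOM thus kept 81.0% of the WT level, and the genotypes did not overlap. The ERK-selective genes therefore spanned log2 fold changes from -1.09 to -0.30.

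The p38/JNK-selective genes did not pass. Dusp8, a phosphatase known for its expression in brain, stood at 182.7, 195.5, 182.5 and 180.2 CPM across WT replicates 1 to 4 and 186.7, 196.0, 195.2 and 196.5 CPM across HOM replicates 1 to 4. These ranges overlap, at means of 185.2 ± 6.96 and 193.6 ± 4.64 CPM (SD, n = 4; log2 change 0.06, SE 0.06). Dusp16, which encodes the JNK phosphatase MKP-7, stood at 17.1, 17.9, 17.1 and 18.7 CPM across WT replicates 1 to 4. It stood at 18.6, 21.6, 19.9 and 19.1 CPM across HOM replicates 1 to 4 (log2 fold change 0.16, SE 0.08). The lowest HOM library lay just under the highest WT library.

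Dusp10, which encodes MKP-5, differed from the other two of its class in direction. It stood at 8.73, 7.05, 7.06 and 7.71 CPM across WT replicates 1 to 4 and 4.84, 6.99, 5.92 and 5.71 CPM across HOM replicates 1 to 4. The genotypes did not overlap, though by a margin of 7.05 to 6.99 CPM only, and the log2 fold change of -0.39 (SE 0.13) did not pass. This value is no smaller than that of the ERK-selective Dusp7. Dusp10 had the fewest counts of the set, 175 to 323 per library, over a span of 62335 bases on chromosome 1.

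**Figure D2:**
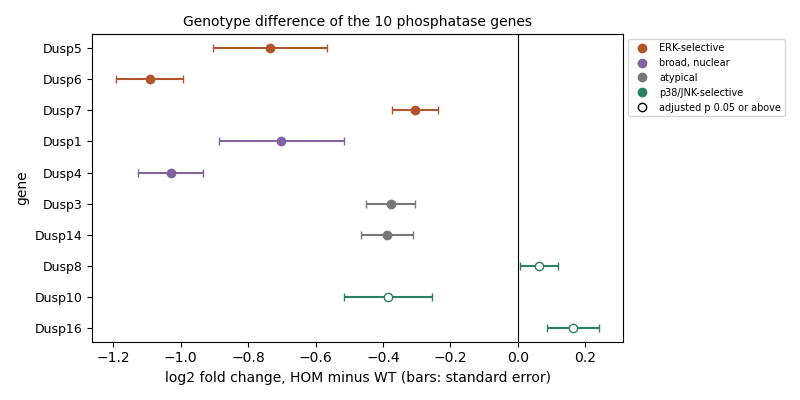
Log2 fold change of HOM against WT (horizontal axis) with its standard error for the 10 genes (vertical axis), coloured by class; open points did not pass. The ERK-selective genes lie between -1.09 and -0.30 and the p38/JNK-selective genes between -0.39 and 0.16, so the classes overlap.

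Dusp4 and Dusp1, the nuclear enzymes of broader range, fell as well. Dusp4, which encodes MKP-2, had the fold change closest to that of Dusp6. It stood at 12.6, 13.7, 14.7 and 14.4 CPM across WT replicates 1 to 4 and 7.50, 6.25, 7.04 and 6.27 CPM across HOM replicates 1 to 4. Every HOM library was well under the lowest WT library, and HOM held 48.9% of the WT level (13.8 ± 0.898 against 6.77 ± 0.610 CPM, SD, n = 4; log2 fold change -1.03, SE 0.10). The gene lies on chromosome 8, plus strand, from 34807297 to 34819894, clear of other genes, and its values rest on 178 to 467 counts per library.

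Dusp1 encodes MKP-1, a classical immediate early gene product. It stood at 54.7, 43.3, 39.8 and 33.6 CPM across WT replicates 1 to 4 and 35.0, 29.8, 21.3 and 19.3 CPM across HOM replicates 1 to 4. Here the genotypes overlapped, since HOM replicate 1 was above WT replicate 4. The means were 42.9 ± 8.84 and 26.4 ± 7.35 CPM (SD, n = 4), a log2 fold change of -0.70 (SE 0.19), and the call was lost in 14 of 19 alternative analyses. The annotated span of Dusp1 on chromosome 17, from 26505590 to 26562128 on the minus strand, reaches far upstream of the RefSeq start site, and other genes share 6.50% of it.

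The atypical phosphatase genes Dusp3 and Dusp14 fell by similar amounts. Dusp3, which encodes the small phosphatase VHR, stood at 166.1, 162.2, 177.4 and 164.0 CPM across WT replicates 1 to 4. It stood at 125.5, 144.5, 129.8 and 115.8 CPM across HOM replicates 1 to 4, all under the lowest WT library (log2 fold change -0.38, SE 0.07). Other genes share 21.8% of the span of Dusp3, most of it with Cfap97d1 on the opposite strand, so part of its value is uncertain. Dusp14 stood at 50.3, 54.8, 56.7 and 46.9 CPM across WT replicates 1 to 4 and 38.2, 37.7, 40.4 and 43.0 CPM across HOM replicates 1 to 4. Its genotypes did not overlap either (log2 fold change -0.39, SE 0.08), and no other gene overlaps its span.

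Set side by side, the median log2 fold change was -0.74 for the ERK-selective genes and 0.06 for the p38/JNK-selective genes, a difference of -0.80. With 3 genes in each class, these medians are the values of Dusp5 and Dusp8. In each library the mean log2 CPM of Dusp5, Dusp6 and Dusp7 was compared with that of Dusp8, Dusp10 and Dusp16. The ERK-selective mean exceeded the other by 0.67, 0.65, 0.84 and 0.43 in WT replicates 1 to 4. In HOM replicates 1 to 4 the excess was 0.23, 0.06, -0.18 and -0.15. The excess thus averaged 0.65 ± 0.17 in WT and -0.01 ± 0.19 in HOM (SD, n = 4), with no overlap. These levels were not scaled by gene length, so only the change of the excess between genotypes, -0.66, is read, and not its size or sign. The ERK-selective mean itself went from 5.52 ± 0.15 to 4.81 ± 0.18, and the p38/JNK-selective mean from 4.87 ± 0.04 to 4.82 ± 0.11. This comparison was chosen with the contrast known and was not tested. It does not make the fall particular to ERK-selective genes, since the 4 members outside both classes fell too.

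**Figure D3:**
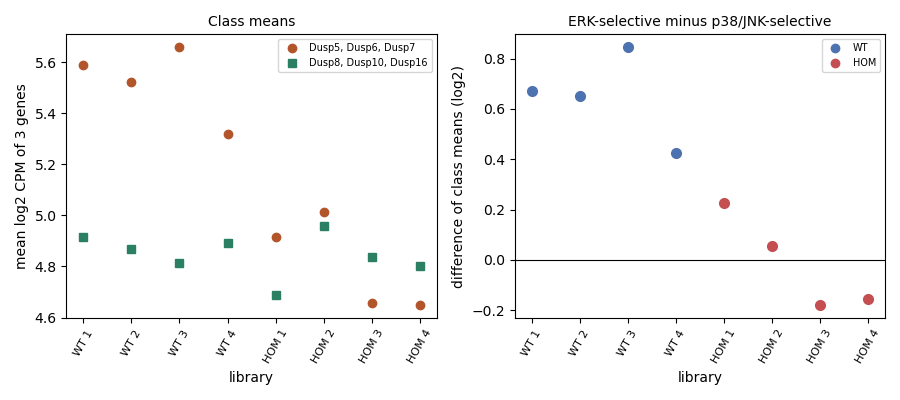
Left, mean log2 CPM (vertical axis) of the 3 ERK-selective genes (circles) and of the 3 p38/JNK-selective genes (squares) in each of 8 libraries; right, their difference in WT (blue) and HOM (red) libraries. The difference lies between 0.43 and 0.84 in WT and between -0.18 and 0.23 in HOM.

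The number of members lower in HOM depended on single libraries. It was 4, 5, 2 and 7 without WT replicates 1 to 4 and 2, 6, 2 and 4 without HOM replicates 1 to 4, leaving out 1 library at a time. Dusp4 and Dusp6 passed in each of the 19 alternative analyses run, at log2 fold changes from -1.07 to -0.95 and from -1.19 to -1.03. None of the 10 log2 fold changes changed sign in any of them. Dusp3 and Dusp14 passed in 14 of 19, Dusp5 in 13 and Dusp7 in 9. In a fit that included the mean log2 CPM of choroid plexus markers, 2 members, Dusp4 and Dusp6, passed, among 26 lower and 9 higher genes in all. The 5 members that no longer passed kept log2 fold changes below 0, at -0.60 for Dusp1 (-0.70 without the covariate), -0.45 for Dusp3 (-0.38), -0.91 for Dusp5 (-0.74), -0.40 for Dusp7 (-0.30) and -0.55 for Dusp14 (-0.39). That mean went from 2.98 ± 1.25 (WT) to 0.778 ± 0.885 (HOM; SD, n = 4), so it shares part of its spread with genotype. The difference between the class medians, -0.80 with all libraries, was -0.89 without WT replicate 4, the library richest in these markers, and -0.70 without HOM replicate 4.

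The members also differed in how much they varied among libraries of 1 genotype, which the list did not use. Dusp1 and Dusp5 varied most, with coefficients of variation of 20.6% and 17.4% in WT and 27.9% and 24.3% in HOM (n = 4). Dusp8 varied least in HOM, at 2.40%, and little in WT, at 3.76%. Dusp4, which fell about as far as Dusp6, varied by 6.49% in WT and 9.02% in HOM, against 10.9% and 11.6% for Dusp6.

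The libraries in which Dusp6 was high for its genotype were also those in which Dusp5 was high. After the genotype mean of log2 CPM was removed, both were above it in WT replicates 1 and 3 and HOM replicates 1 and 2, and both below it in WT replicate 4 and HOM replicates 3 and 4. Over the 8 libraries the deviations of Dusp5 and Dusp6 gave a Pearson r of 0.95 (Spearman rho 0.93), between 0.93 and 0.99 with each library left out. The same measure against Dusp6 was 0.74 for Dusp1, 0.66 for Dusp3 and 0.24 for Dusp7. It was 0.11 for Dusp10, -0.005 for Dusp4, -0.02 for Dusp14, -0.13 for Dusp16 and -0.31 for Dusp8. Dusp4 thus fell about as far as Dusp6 between genotypes, while the r of its deviations with those of Dusp6 was near 0. Dusp4 rests on 178 to 467 counts per library and varied little. The part of counting noise in its deviations was not tested, so this r cannot show that the genes vary independently. These values describe 8 libraries that share depth and composition, with no p-value.

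**Figure D4:**
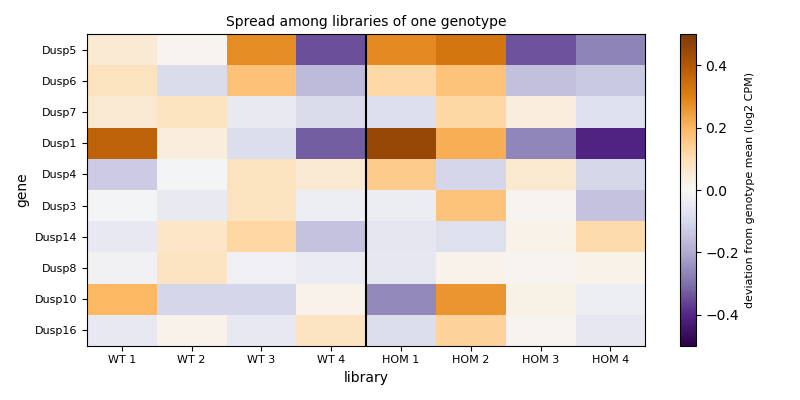
Deviation of log2 CPM from the genotype mean (colour scale, orange above and purple below) for the 10 genes (rows) in the 8 libraries (columns). Dusp5 and Dusp6 are above their mean in WT 1, WT 3, HOM 1 and HOM 2, and Dusp8 hardly departs from its mean.

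By that measure the protein-coding genes most like Dusp6, of 9971 with a mean of at least 10 CPM, were Bmper (r 0.97), Ldb3 (0.97), Cwc25 (0.96), Fbxo10 (0.96) and Syt12 (0.96), with a median of 0.02 over all. None of these 5 differed between genotypes in the edgeR test (adjusted p from 0.1104 to 0.719). Among activity-induced genes, r with Dusp6 was 0.83 for Arc, 0.82 for Fos, 0.81 for Nr4a1 and 0.76 for Egr1, but 0.25 for Fosb and -0.05 for Egr4. Values this high were not rare over 8 libraries: Arc ranked 203 and Egr1 578 among the 9971 genes, and 701 genes exceeded the 0.74 of Dusp1. Of 12 activity-induced genes listed with earlier results of these data known, 11 fell, where 2.94% of all genes tested were lower. Given that choice, the count is a description. The median log2 fold change over all 12 was -1.21, against -1.09 for Dusp6. Of these 11, Egr1, Egr2, Egr3, Egr4, Fosb and Fosl2 passed in all 19 alternative analyses. Dropping replicate 3 of either genotype cost Fos and Nr4a1 their calls. Nr4a1 also lost its call when WT replicate 1 or HOM replicate 4 was dropped. Among single libraries dropped, only WT replicate 4 left Ier2 with its call. The robust fit lost Fos and Nr4a1. The choroid plexus covariate lost Fos, Nr4a1, Ier2, Junb and Arc, at log2 fold changes from -1.62 (Fos) to -0.90 (Ier2).

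Levels of different genes can be compared only per length. Per kilobase of annotated exon, WT levels ran from 38.04 ± 1.43 CPM per kb for Dusp8 down to 2.27 ± 0.100 for Dusp16 (SD, n = 4). Between them, in falling order, came Dusp3 (35.8 CPM per kb), Dusp7 (29.8), Dusp14 (26.8), Dusp6 (21.1), Dusp1 (12.9), Dusp5 (6.01), Dusp4 (5.05) and Dusp10 (2.51). The WT libraries of Dusp8 and Dusp3 overlapped, as did those of Dusp7 and Dusp14, of Dusp5 and Dusp4, and of Dusp10 and Dusp16, so the order within these pairs was not resolved. In HOM, Dusp6 stood at 9.89 ± 1.15 and Dusp1 at 7.96 ± 2.22 CPM per kb. The counts appear to cover whole gene bodies, introns included. Per kilobase of gene span, Dusp6 (15.5 CPM per kb in WT) and Dusp7 (14.1) came ahead of Dusp8 (11.3), and Dusp10 (0.123) was lowest, so the order depends on which length is used.

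Among other dual-specificity phosphatases none fell. Of 19 listed, 17 were tested, 1 rose, none fell (DESeq2 also called none lower, and 1 was lower at an unadjusted p under 0.05) and 16 did not pass, at a median log2 fold change of 0.07. The riser was Ssh3, a cofilin phosphatase of the slingshot group, from 51.6 ± 2.30 to 63.6 ± 3.69 CPM (SD, n = 4; edgeR adjusted p = 0.0258). That call was lost without WT replicate 1, 3 or 4 and without HOM replicate 1 or 3. Dusp2 and Dusp9, the remaining MAP kinase phosphatases of the classical kind, were low at 0.535 and 0.734 CPM in WT, and Dusp2 held 171 counts in all 8 libraries. Dusp11 (90.5 CPM in WT, log2 fold change 0.14, SE 0.08), Dusp18 (-0.20, SE 0.07) and the pseudophosphatase gene Styx (0.26, SE 0.12) did not pass. Neither did the 3 tyrosine phosphatases that bind MAP kinases: Ptpn5, which encodes the striatal-enriched phosphatase STEP, had a log2 fold change of -0.12 (SE 0.05), Ptprr of -0.05 (SE 0.07) and Ptpn7 of -0.56 (SE 0.36). For those 3 DESeq2 made no call, and Ptpn5 alone had an unadjusted p under 0.05.

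Most genes of the kinase cascades did not pass. Mapk3, which encodes an ERK kinase, stood at 182 ± 11.9 CPM in WT and 223 ± 28.3 CPM in HOM and did not pass (SD, n = 4; edgeR adjusted p = 0.0749). Of 30 ERK cascade genes 3 fell, none rose and 27 did not pass, at a median of -0.05. DESeq2 called 3 of that list higher and 4 were higher at an unadjusted p under 0.05. The adaptor gene Shc3 fell (-0.51, SE 0.09, edgeR adjusted p = 0.0145). So did the Ras activator genes Rasgrp1 (-0.45, SE 0.12, edgeR adjusted p = 0.0428) and Rasgrf2 (-0.35, SE 0.08, edgeR adjusted p = 0.0321). Shc3 passed in 16 of 19 alternative analyses, Rasgrf2 in 10 and Rasgrp1 in 7. Other adaptor and Ras activator genes of the list did not pass, among them Shc1 (-0.07), Grb2 (0.01), Sos1 (-0.23) and Rasgrf1 (-0.14). Rps6ka5, which encodes the kinase MSK1, had a log2 fold change of 0.30 (SE 0.08) and did not pass.

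None of 9 p38 cascade genes passed, by edgeR or DESeq2, with 1 lower and 1 higher at an unadjusted p under 0.05 and a median of 0.05. The p38 genes Mapk14 (log2 fold change -0.003, SE 0.07) and Mapk11 (0.01, SE 0.08) were among them, as were Map2k6 (0.26, SE 0.09), Mapkapk3 (-0.47, SE 0.19), Map2k3 (0.09, SE 0.09) and Mapkapk5 (0.36, SE 0.41). Of 13 JNK cascade genes 1 fell, Mapk9, which encodes JNK2 (275 ± 14.1 to 217 ± 15.1 CPM; log2 change -0.34, SE 0.07, adjusted p in edgeR = 0.0196). No JNK gene was higher by edgeR, by DESeq2 or at an unadjusted p under 0.05. Mapk8 (-0.23, SE 0.10), Map2k4 (-0.13, SE 0.07) and Map3k13 (-0.16, SE 0.08) did not pass. None of 10 upstream stress kinases passed, among them Taok3 (0.23, SE 0.06), Map3k5 (-0.19, SE 0.08), Map3k7 (-0.16, SE 0.08) and Taok1 (-0.24, SE 0.13). In that list 1 gene was lower and 1 higher at an unadjusted p under 0.05, and DESeq2 called 1 higher. Of 6 other MAP kinase genes the atypical kinase genes Mapk4 (-0.37, SE 0.06, edgeR adjusted p = 0.00957) and Mapk6 (-0.48, SE 0.10, edgeR adjusted p = 0.0228) fell. The others of that list, with Nlk (-0.19, SE 0.07) and Map2k5 (0.18, SE 0.07), did not pass.

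Some of the genes that ERK signalling induces as feedback fell. Of 11 tested, 4 were lower and none higher in edgeR, at a median of -0.30. DESeq2 called 5 lower and none higher. At an unadjusted p under 0.05, 9 were lower and none higher. The Sprouty gene Spry4, whose product restrains signalling ahead of ERK, went from 15.5 ± 1.37 to 9.23 ± 1.18 CPM (SD, n = 4; log2 change -0.75, SE 0.11, adjusted p in edgeR = 0.00438), close to the fold change of Dusp5. Spry2 (-0.41, SE 0.07), the transcription factor gene Etv5 (-0.41, SE 0.06) and Spred2 (-0.33, SE 0.06) were the others.

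**Figure D5:**
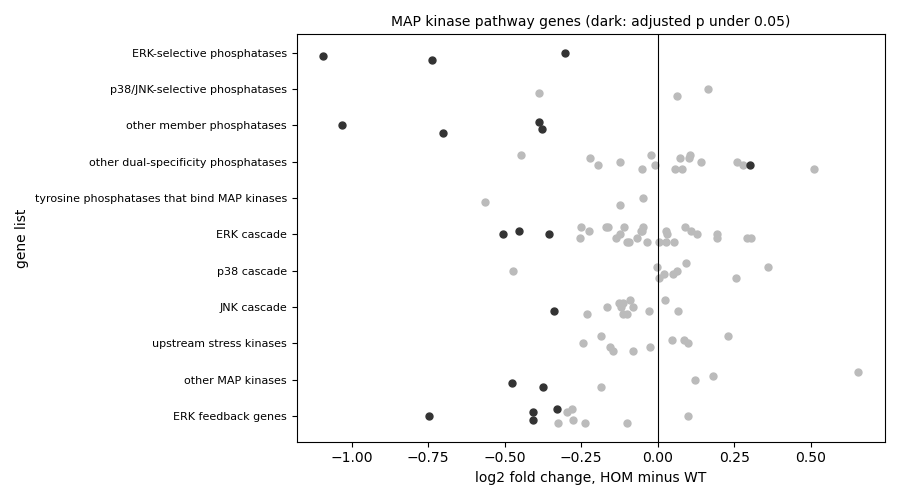
Log2 fold change of HOM against WT (horizontal axis) for each gene tested in 11 lists of the MAP kinase pathway (vertical axis), dark where the adjusted p was under 0.05. Dusp6 and Dusp4 lie at -1.09 and -1.03, whereas the cascade lists centre between -0.11 and 0.05.

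Over the 8 lists that hold no member, 10 of 99 genes tested were lower, 1 was higher and 88 did not pass. The number lower was 8, 11, 4 and 9 without WT replicates 1 to 4 and 4, 11, 2 and 7 without HOM replicates 1 to 4, and 0 with the choroid plexus covariate. With that covariate the log2 fold changes of the 10 genes were still below 0, from -0.63 (Mapk6, -0.48 without it) to -0.36 (Mapk4, -0.37 without it), and that of Spry4 was -0.63 (-0.75 without it). Spry4 and Etv5 passed with each library left out in turn. Without HOM replicate 3 the other 8 genes that fell no longer passed, and the log2 fold changes of all 10 kept their sign in each of the 19 alternatives.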

How the data were processed

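RNA from 4 WT and 4 HOM mouse samples was made into stranded, paired-end TruSeq libraries, per the labels' protocols. Unnormalized read counts, 1 whole number for each Ensembl gene and library, are what the authors deposited. The submitters' processing notes name FastQC (0.11.3), STAR, featureCounts, edgeR and build GRCm38. Not given in the sources used here: other versions, annotation, strand setting. GENCODE M21 held 54409 of 54446 identifiers; the other 37 carried 0.0143% of counts. Of 1280 nested protein-coding genes, 1261 stood at 0 against 13.5% of those not nested, so counts are taken to cover gene bodies without strand.

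Differences were fitted in edgeR 4.0.16 under R 4.3.3 (quasi-likelihood, TMM, filterByExpr: about 10 counts in 4 libraries and 15 in all; standard error as log2 fold change over the root of F), with Benjamini-Hochberg adjustment over 17395 genes and a threshold of 0.05. Log2 CPM used a prior count of 2. No replicate pair agreed within sampling noise (chi-square per degree of freedom at least 6.68). The fit was tested on simulated data. Members and lists were chosen with earlier results of these data known. Besides the 10 members and Scn2a, up to 4 genes of smallest p per list, those most like Dusp6, and further list members for their values were named. Alternatives were DESeq2 1.42.0, limma-voom (limma 3.58.1), other scalings, filters, a robust fit, a replicate block, a covariate of mean choroid plexus marker log2 CPM, and libraries left out.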

Additional observations from a re-analysis of the deposited data

Results flagged for a closer look

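Of 22 groups of 4 libraries examined (10 genes and the class difference, in each genotype), 2 held a library set apart from the others, both for Dusp8. Chance flags about 1 in 20 such groups. In WT, replicate 2 stood at 195.5 CPM against 180.2 to 182.7 CPM in the other 3 libraries. In HOM, replicate 1 stood at 186.7 CPM against 195.2 to 196.5 CPM. The distances are small beside the level of the gene, and Dusp8 did not pass with either library left out.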

How the results depend on the processing

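The counts over all genes, 511 lower and 429 higher, moved with the setting. Those of the members did not always follow, and with DESeq2 they stayed at 7. DESeq2 gave 1073 lower and 774 higher genes, library totals in place of TMM 286 and 844, upper-quartile scaling 355 and 539, the 1 CPM filter 439 and 528, and the choroid plexus covariate 26 and 9. Without replicate 4 of either genotype they were 200 and 135. With 1 library left out the counts ranged from 89 to 649 lower and from 67 to 538 higher. Members lower in HOM numbered 7, ranged from 2 to 7 with 1 library left out, and were 4 without both replicates 4 and 2 with the covariate; elsewhere they numbered 5 to 7, and no alternative made a member higher. Over the lists without members, higher genes numbered 1, against 5 with DESeq2, 4 with upper-quartile scaling, 5 with library totals, 3 with no filter, 3 with the 1 CPM filter, 0 to 3 with 1 library left out, 0 without both replicates 4 and 0 with the covariate. Lower ones ranged from 2 to 11 with 1 library left out and numbered 4 without both replicates 4 and 0 with the covariate. The difference between the class medians stayed between -0.92 and -0.69, and the r of Dusp5 with Dusp6 between 0.93 and 0.99 with 1 library left out.

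The replicate number as a block gave 195 lower and 169 higher genes, 5 members lower, with Dusp7 and Dusp14 no longer past the threshold, and 0 higher genes in the other lists. Over all genes tested, the numbers do not appear to pair the samples. The deviations of same-numbered libraries correlated at 0.05, -0.20, -0.01 and 0.03, and no WT library matched best the HOM library of its own number. Dusp1, which kept its call with the block, did fall from replicate 1 to 4 in both genotypes. Its deviations were 0.37, 0.04, -0.09 and -0.33 in WT and 0.45, 0.22, -0.26 and -0.41 in HOM. Depth limits Dusp10, Dusp4 and Dusp5 most, at 175 to 564 counts per library.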
